A study of Mus musculus with 6 samples.

Results

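The semaphorins and their receptors, the plexins and neuropilins, were examined in mouse embryonic stem (ES) cells with and without Satb1. The set held every gene of the array whose annotation gave exactly 1 symbol beginning with Sema or Plxn, or equal to Nrp1 or Nrp2. This gave 31 of 19938 genes, 20 semaphorins (ligands) and 11 receptors. The receptors were 9 plexins and 2 neuropilins. Where a gene had several probe sets, the one with the highest 6-array mean stood for it.

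Semaphorins are secreted or membrane-bound proteins that share an extracellular sema domain and steer growing axons, migrating cells and vessel sprouts. Plexins are their main receptors and act on the cytoskeleton and on integrin adhesion. Neuropilins hold the secreted class 3 semaphorins for a plexin partner and also bind vascular endothelial growth factors.

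The 3 wild-type arrays (replicates 1, 2 and 3) came from ES cells labelled control, and the 3 knockout arrays (replicates 1-1, 1-2 and 2-1) from Satb1-/- cells, whose labels name them as clones. In all 6, per the series' design, the Oct4 locus carried a HygroTK reporter, and hygromycin was added so that Oct4-expressing cells survived. All were cultured with serum and LIF for 3 days on irradiated feeder cells, most of which were then removed by settling, so the RNA may still hold some feeder RNA. Total RNA was labelled with biotin and hybridised in 1 colour. Separate cultures within a group are not stated in the labels, so p-values reflect only the scatter of these arrays, which may be technical. The labels also leave unexplained what the first number of a clone name stands for.

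Values are log2 expression made by the authors with RMA, which corrects background, normalises between arrays and summarises the probes of a set. Array medians lay between 4.69 and 4.85. Over all probe sets the wild-type arrays correlated with each other at Pearson's r of 0.976 to 0.986 and the knockout arrays at 0.989 to 0.991, while pairs across groups lay at 0.981 to 0.987. Satb1 read 5.14 ± 0.16 in wild type and 4.47 ± 0.10 in knockout (SD, n = 3 each, limma adjusted p = 0.022), but the sources used here do not say where its probes lie relative to the deletion. The ES cell genes Pou5f1 (10.22 and 9.83, wild-type and knockout means) and Sox2 (9.94 and 10.24) missed the threshold for change described next. Nanog (9.87 and 10.95) passed it, so the groups differed in this marker, which lies among raised genes of chromosome 6. Each difference is the knockout mean less the wild-type mean in log2 units, given with limma's moderated standard error (SE). Calls of change required a limma p under 0.05 after Benjamini-Hochberg adjustment across the 19938 genes.

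The start regions of 2 semaphorin genes are shown because these genes lay at opposite ends of the set after Sema6a and because SATB1 is known for binding AT-rich DNA. They were picked, after their values were seen, from genes with groups that did not overlap and with a single RefSeq start. With Sema6a left out, they had the largest increase and the largest decrease among those genes. Neither Sema5a nor Sema3e passed the threshold for change (limma adjusted p = 0.0557 and 0.175). Sema6a fell further, but its start region was not considered. Each line holds the 250 bases before the start, 5′ to 3′ on the plus strand (RefSeq, GRCm38.p6), at chr15:32244563-32244812 for Sema5a and chr5:14025026-14025275 for Sema3e. Capitals mark the longest unbroken run of A and T.
Sema5a: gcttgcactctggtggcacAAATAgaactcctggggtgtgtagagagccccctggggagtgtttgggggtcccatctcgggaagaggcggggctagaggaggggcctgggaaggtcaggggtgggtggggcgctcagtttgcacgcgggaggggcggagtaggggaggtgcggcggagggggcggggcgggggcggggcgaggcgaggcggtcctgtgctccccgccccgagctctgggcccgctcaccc
Sema3e: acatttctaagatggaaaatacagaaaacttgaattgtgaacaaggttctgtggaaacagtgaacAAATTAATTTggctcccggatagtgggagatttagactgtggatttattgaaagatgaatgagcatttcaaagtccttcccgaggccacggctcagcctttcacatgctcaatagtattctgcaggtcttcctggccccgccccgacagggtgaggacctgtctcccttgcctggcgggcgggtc
The Sema5a region was 28% A and T, with 17 CG dinucleotides and a longest A and T run of 5 bases. The Sema3e region was 52.0% A and T, with 7 CG dinucleotides and a run of 10 bases. Over 32851 RefSeq promoter windows of the same length the median was 47.6% A and T and 6 CG dinucleotides, and 22.3% of windows held an A and T run of at least 10 bases, counting 1 strand since such a run is the same length on both. Of the 31 genes, 26 were represented, by 37 such windows. Sema6a was left out, so the ligand values below do not cover it. The 27 ligand windows had a median of 40.8% A and T, and the 10 receptor windows one of 33.4%, with a range of 24.8% to 37.2%. An A and T run of at least 10 bases was held by 11.1% of the ligand windows. Sema4f (difference -0.07) and Sema6d (-0.02) had windows with longer runs than Sema3e, of 12 and 11 bases. Genes with several starts are counted once for each, and base composition is a description that shows no binding.

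Sema6a was the only one of the 31 genes to pass the test, and it fell. It encodes a transmembrane semaphorin that signals through plexin-A2 and plexin-A4. Its values were 6.54, 6.24 and 6.21 in wild-type replicates 1, 2 and 3, and 5.33, 5.06 and 5.01 in knockout replicates 1-1, 1-2 and 2-1. Every knockout array lay below every wild-type array, and the gap between the groups was wider than the range within either. The means were 6.33 ± 0.18 and 5.14 ± 0.17 (SD, n = 3 each), a difference of -1.20 (SE 0.13, 95% interval -1.49 to -0.91, limma adjusted p = 0.00147), or a 2.29-fold lower value. Thus 1 of 31 genes was lower and 0 were higher, where 0.476% of all genes tested were lower and 0.923% higher. At an unadjusted p under 0.05, limma listed 5 of the 31, against 10.5% of all genes. The call for Sema6a was lost when values below the median of all deposited values were raised to it (adjusted p = 0.138), although the difference stayed at -1.20. Of 12 markers of trophectoderm and simple epithelium, 3 also fell, the keratin genes Krt8, Krt18 and Krt19, and 0 rose. The list did not move one way, since 5 differences were above 0. The trophectoderm regulators Eomes (0.55), Tead4 (0.43) and Tfap2c (0.33) read higher without overlap but missed the threshold. Tead4 lies among raised genes of chromosome 6. Krt7 (-1.57, limma adjusted p = 0.0716) read lower without overlap and also missed the threshold. Without overlap, 4 of the 12 were lower and 3 higher, where all genes gave 6.97% and 8.18%. The median difference of the 12 was -0.20, and their mean level was 6.06 to 6.76 in wild type and 5.60 to 5.80 in knockout. Krt8 was highest in wild-type replicate 3 (10.09) and Sema6a in wild-type replicate 1. The part of such cells in the fall of Sema6a was not tested, and fewer cells of a type and less RNA per cell cannot be told apart in bulk samples.

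**Figure D1:**
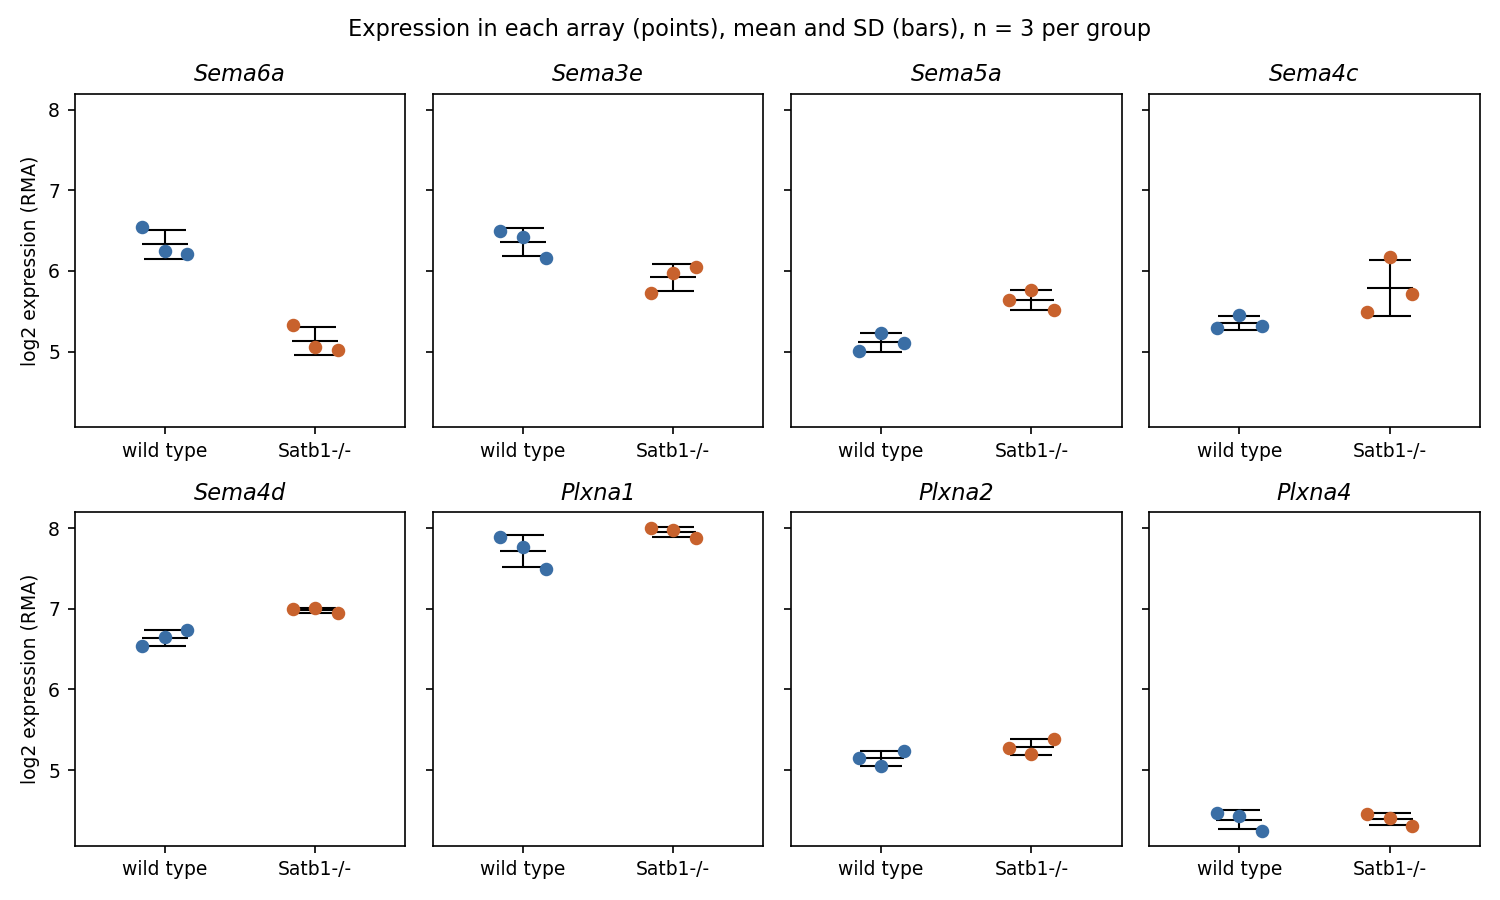
Log2 expression (RMA, y axis) of 8 genes in each array (points, left to right replicates 1, 2 and 3 of wild type and 1-1, 1-2 and 2-1 of Satb1-/-), with the group mean and SD as bars (n = 3). Sema6a drops from 6.33 to 5.14, while the points of its receptor genes Plxna2 and Plxna4 overlap between the groups.

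The receptors of SEMA6A did not pass the test. Plxna2 read 5.15, 5.05 and 5.24 in wild type and 5.27, 5.20 and 5.39 in knockout, a difference of 0.14 (SE 0.11, 95% interval -0.10 to 0.38, limma adjusted p = 0.78). Plxna4 read 4.47, 4.44 and 4.25 against 4.45, 4.41 and 4.31, a difference of 0.0019 (SE 0.11, 95% interval -0.24 to 0.24, limma adjusted p = 0.999). The groups overlapped for both genes, and the intervals leave room for a change of 0.38 in Plxna2 and of 0.24 in either direction in Plxna4. Plxna4 lay below the level of the median gene, where RMA can compress differences, so a change there, if any, could be understated. Such compression was not measured here.

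Of the other class 6 genes, all of which encode transmembrane ligands of class A plexins, none passed the test. Sema6b differed by -0.11 (SE 0.11), Sema6c by 0.09 (SE 0.10) and Sema6d by -0.02 (SE 0.15), with limma adjusted p of 0.841, 0.865 and 0.989. Sema6c read 4.87, 4.90 and 4.87 in wild type and 5.05, 4.92 and 4.96 in knockout, so its groups did not overlap although the difference was small. Sema6b has another probe set on the array, which held the same value as the one kept on every array and adds no information. Sema6d was high in wild-type replicate 1 (4.69) and knockout replicate 1-1 (4.70) and lower in the other 4 arrays (4.25 to 4.42).

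Sema5a came nearest to the threshold among the genes that did not pass. It encodes a transmembrane semaphorin with thrombospondin repeats that binds plexin-B3. Its values were 5.0, 5.23 and 5.11 in wild type and 5.65, 5.76 and 5.51 in knockout. All 3 knockout values lay above all 3 wild-type values, with a difference of 0.53 (SE 0.11, 95% interval 0.27 to 0.78, limma adjusted p = 0.0557), or 1.44-fold. It passed with array weights (0.44, adjusted p = 0.049), with a second quantile normalization (0.54, 0.0452) and among genes above the median gene (0.53, 0.0453). Leaving out any 1 array gave differences of 0.47 to 0.59 and adjusted p of 0.0575 to 0.259. Its relative Sema5b differed by -0.10 (SE 0.10, limma adjusted p = 0.845), from 5.0, 5.01 and 5.04 to 4.94, 4.85 and 4.95. The receptor gene Plxnb3 read 4.08, 3.89 and 4.07 against 3.82, 4.02 and 3.99 (difference -0.07, SE 0.11), with overlapping groups.

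Class 4 semaphorins are membrane-bound ligands, several of which act through class B plexins. None of the 6 passed the test, and limma listed 2 at an unadjusted p under 0.05, Sema4c and Sema4d. Sema4d, whose product binds plexin-B1, read 6.53, 6.65 and 6.73 in wild type and 6.99, 7.01 and 6.95 in knockout, a difference of 0.34 (SE 0.10, 95% interval 0.12 to 0.57, limma adjusted p = 0.186). The knockout values lay close together and above the wild-type ones. Its second probe set differed in sign, with 4.81, 4.51 and 4.24 against 4.30, 4.24 and 4.43 (difference -0.19, SE 0.15), and its groups overlapped. Sema4c, whose product binds plexin-B2, read 5.29, 5.46 and 5.32 against 5.49, 6.17 and 5.71, a difference of 0.43 (SE 0.16, limma adjusted p = 0.331). The high value of knockout replicate 1-2 weighed on this difference, which was 0.24 without that array and 0.40 to 0.58 over the other omissions. Sema4b read 7.03, 7.23 and 7.39 against 7.40, 7.54 and 7.40, so that its highest wild-type and lowest knockout values were 0.009 apart (difference 0.23, SE 0.12).

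The remaining class 4 genes lay below the median gene and shifted little. Sema4a, which encodes an immune and retinal semaphorin, read 4.36, 4.30 and 4.31 in wild type and 4.25, 4.17 and 4.10 in knockout (-0.15, SE 0.10). Sema4f read 4.72, 4.81 and 4.77 against 4.67, 4.70 and 4.72 (-0.07, SE 0.10). For both genes the groups did not overlap, but the difference was under 2 SE. Sema4g differed by -0.02 (SE 0.10), with overlapping groups. The median over the 6 genes of the class was 0.11, with 3 differences above and 3 below 0.

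The class B plexin genes showed no difference beyond their spread. Plxnb1, which encodes the receptor of SEMA4D, read 6.11, 5.97 and 6.09 in wild type and 5.99, 5.96 and 6.25 in knockout (difference 0.01, SE 0.12, 95% interval -0.25 to 0.27). Its difference turned to -0.03 without wild-type replicate 2 and to -0.08 without knockout replicate 2-1. Plxnb2, which encodes the receptor of SEMA4C, read 6.91, 7.32 and 6.90 against 7.09, 7.10 and 7.20 (difference 0.09, SE 0.13, 95% interval -0.20 to 0.38). Here wild-type replicate 2 stood above the other 5 arrays, and the difference was -0.04 with array weights.

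The class 3 genes encode the secreted semaphorins, most of which need a neuropilin. Of the 7, none passed the test, 5 differences were below 0 and 2 above, and their median was -0.07. Sema3e is the exception in receptor use, since its product binds plexin-D1 directly. It read 6.49, 6.42 and 6.16 in wild type and 5.73, 5.97 and 6.05 in knockout, a difference of -0.44 (SE 0.13, 95% interval -0.73 to -0.15, limma adjusted p = 0.175). All knockout values lay below the wild-type ones, but wild-type replicate 3 and knockout replicate 2-1 were 0.11 apart. Plxnd1, the gene of its receptor, read 4.77, 4.71 and 4.39 against 4.53, 4.67 and 4.31 (difference -0.12, SE 0.14), with overlapping groups.

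Among the other class 3 genes the groups overlapped in all 6. Sema3c, whose product guides neural crest and vessel cells, varied most within wild type, at 4.83, 5.11 and 5.90 in replicates 1, 2 and 3, against 5.40, 5.49 and 5.60 in knockout. Its difference of 0.22 (SE 0.22) lay within that spread. Sema3a, which encodes the axon repellent that acts through neuropilin-1, read 4.91, 5.26 and 5.15 against 5.24, 5.04 and 5.24 (0.07, SE 0.12). Sema3f, which encodes a ligand of neuropilin-2, read 5.83, 5.84 and 5.89 against 5.67, 5.80 and 5.90 (-0.06, SE 0.11). Sema3b differed by -0.19 (SE 0.13), Sema3d by -0.07 (SE 0.10) and Sema3g by -0.20 (SE 0.15), the last with wild-type values from 4.32 to 4.95. Sema7a, which encodes a lipid-anchored semaphorin that binds plexin-C1 and integrins, differed by -0.09 (SE 0.16). Plxnc1 read 3.63, 3.68 and 3.54 against 3.74, 3.59 and 3.63 (0.04, SE 0.10), with overlapping groups.

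Both neuropilin genes missed the threshold. Nrp2 read 6.57, 6.52 and 6.42 in wild type and 6.59, 6.77 and 6.64 in knockout, a difference of 0.17 (SE 0.10, 95% interval -0.07 to 0.40, limma adjusted p = 0.69). It was the only receptor gene with groups that did not overlap, by a gap of 0.03. Nrp1 read 4.50, 4.17 and 4.93 against 4.54, 4.12 and 4.57 (difference -0.12, SE 0.19, 95% interval -0.54 to 0.30), with a wide spread in both groups. Plxna1, which encodes a partner of neuropilins and a receptor of SEMA6D, read 7.89, 7.77 and 7.49 against 8.0, 7.97 and 7.88 (0.23, SE 0.12, limma adjusted p = 0.587). Wild-type replicate 3 was the low array for Plxna1, and without it the difference was 0.12. Plxna3 differed by -0.01 (SE 0.11).

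**Figure D2:**
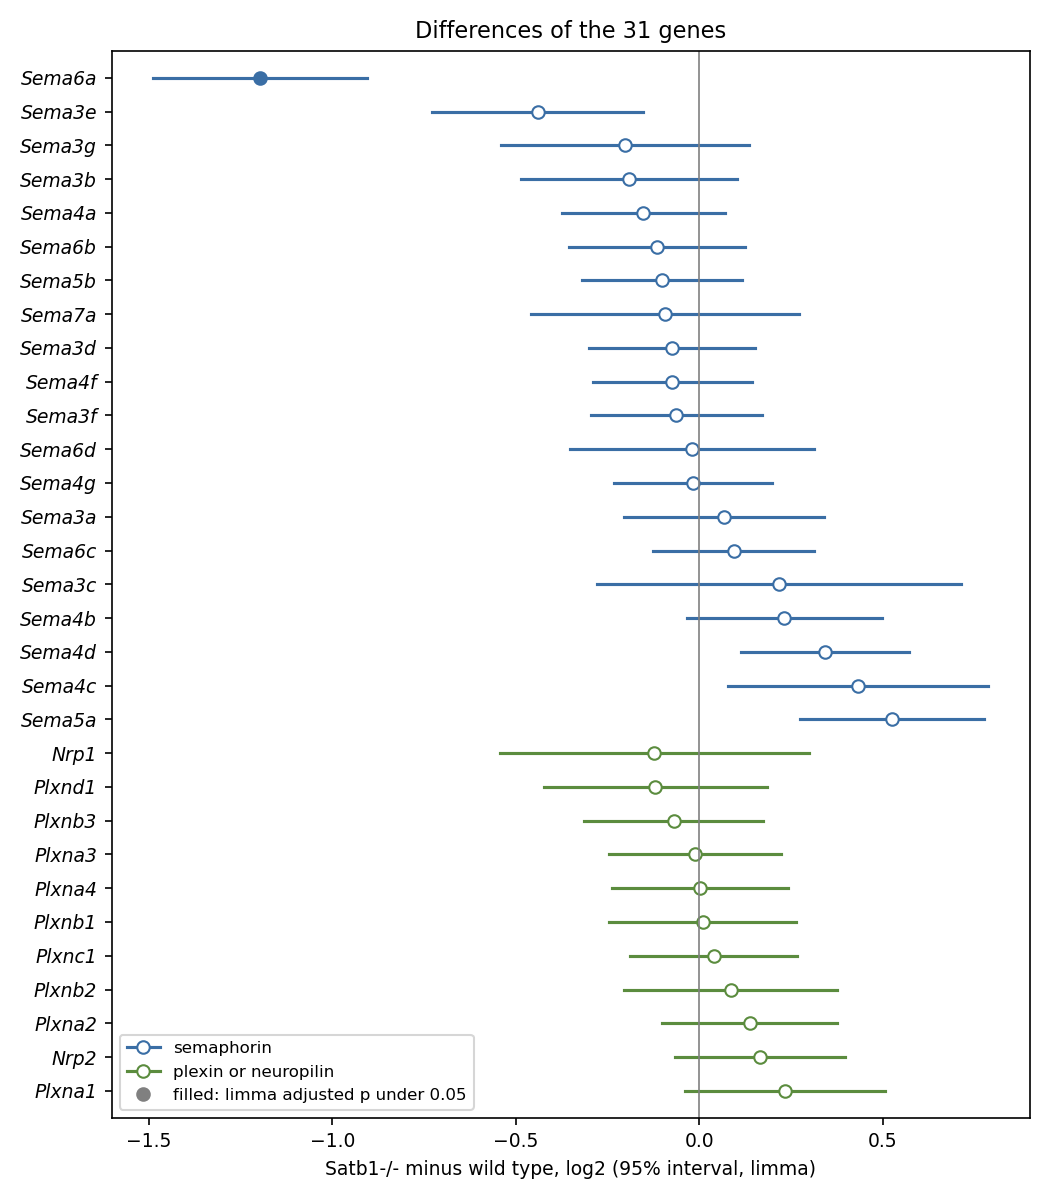
Difference between Satb1-/- and wild type (x axis, log2) with limma's 95% interval for each of the 31 genes (n = 3 arrays per group), semaphorins in blue and receptors in green, filled where the adjusted p was under 0.05. Only Sema6a (-1.20) is filled, and the receptors lie between -0.12 and 0.23.

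Ligand differences spanned a wider range than receptor differences. The 20 ligand differences ran from -1.20 to 0.53 with a median of -0.07, and the 11 receptor differences from -0.12 to 0.23 with a median of 0.01, where the median of all genes was -0.0044. None of the 11 receptor genes passed the test, and 0 did so at an unadjusted p under 0.05. Without overlap between the groups were 11 of the 31 genes (35.5%), against 15.1% of all genes. Lower without overlap were 5 (6.97% of all genes) and higher 6 (8.18% of all genes). All but 1 of the 11 were ligands: 10 of 20 ligand genes (50.0%) and 1 of 11 receptor genes (9.09%). Whether ligands and receptors differ in this share was not tested, and 7 of the 11 genes had a gap between the groups under 0.1 log2 units. The mean level moved little between arrays, with the ligand mean between 5.19 and 5.26 and the receptor mean between 5.33 and 5.40. By group, the ligand mean, which includes Sema6a, was 5.24 to 5.26 in wild type and 5.19 to 5.22 in knockout, without overlap. The receptor means of the groups overlapped. The means of the 20 ligand genes thus hid differences of opposite sign.

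**Figure D3:**
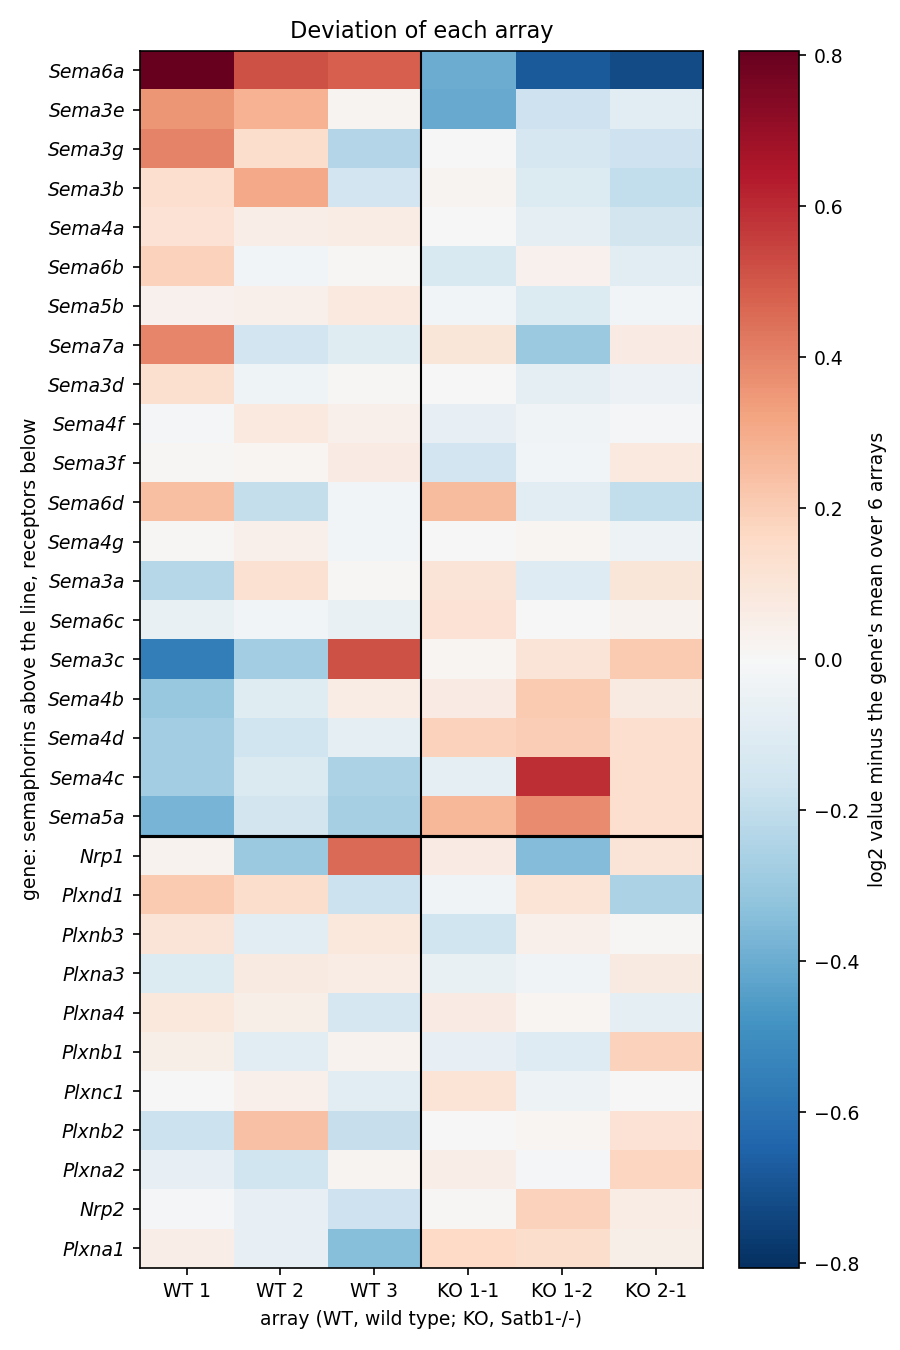
Log2 value of each array (columns) minus the gene's mean over the 6 arrays (colour scale), for semaphorins above the line and receptors below it (rows, sorted by difference). Sema6a, Sema5a and Sema4d are among the genes that change colour between the groups, as is Sema3e, whose wild-type replicate 3 lies near its mean. Sema3c and Nrp1 are highest in wild-type replicate 3.

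Chromosome position was compared because groups of neighbouring genes differed together in these cells. For each gene the nearest genes brighter than the median gene were taken, 10 on each side where the chromosome had them. The 20 neighbours of Sema6a on chromosome 18 had a median difference of 0.13, and 80.0% of them were higher, so Sema6a moved against its surroundings. Neighbour medians were -0.01 for Sema5a on chromosome 15, 0.07 for Sema3e on chromosome 5, 0.11 for Sema4c on chromosome 1 and -0.03 for Sema4d on chromosome 13. Nrp1 was the exception: it lies near the end of chromosome 8, where the median over all brighter genes was -0.29, and its 11 neighbours had a median of -0.31 with 0 of them higher. Its own difference of -0.12 has an interval that holds that value. The 4 genes on chromosome 6 (Sema4f, Plxna1, Plxna4 and Plxnd1) had neighbour medians from -0.01 to 0.11.

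**Figure D4:**
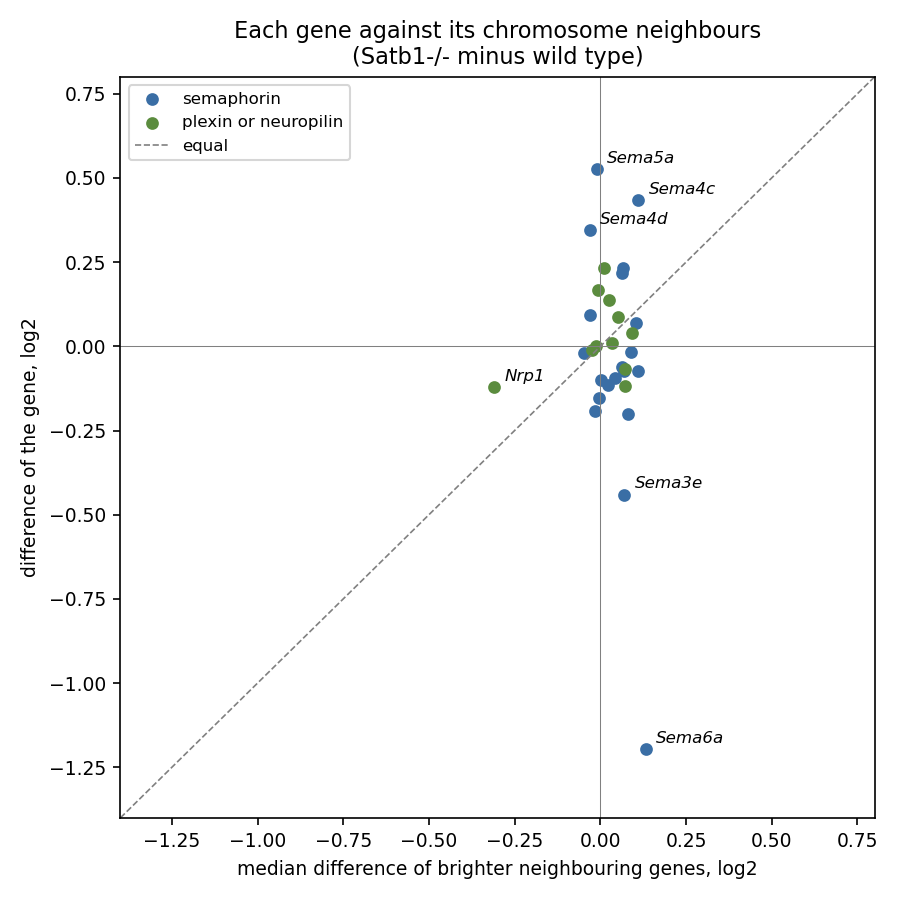
Difference of each of the 31 genes (y axis, log2) against the median difference of its brighter chromosome neighbours (x axis, log2, up to 20 genes), with the line of equal values dashed. Sema6a lies at -1.20 with a neighbour median of 0.13, and Nrp1 is the single gene whose neighbours are low (-0.31).

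Genes that carry plexin and neuropilin signals inside the cell, and other receptors that bind these proteins, were taken from 2 lists. Of 47 measured genes, 3 rose and 0 fell by limma (7 at an unadjusted p under 0.05 in either direction), where all genes gave 0.923% higher, 0.476% lower and 10.5% at that unadjusted p. Mical3, which encodes a flavoprotein monooxygenase of the MICAL family that acts on actin and vesicles, went from 7.02, 7.27 and 7.27 to 8.36, 8.55 and 8.45 (difference 1.27, SE 0.11, limma adjusted p = 0.000774). It lies among raised genes of chromosome 6, where its neighbours had a median of 0.91 and 95% were higher. Dpysl3, which encodes a collapsin response mediator protein, went from 6.33, 6.02 and 6.51 to 7.28, 6.97 and 7.33 (difference 0.91, SE 0.15, limma adjusted p = 0.015). Itga1, which lay below the level of the median gene, encodes a subunit of an integrin that binds SEMA7A. Its values went from 4.34, 4.46 and 4.40 to 5.11, 4.97 and 4.88 (difference 0.59, SE 0.11, limma adjusted p = 0.0264). Neighbours of Dpysl3 and Itga1 had medians of 0.12 and 0.09. The call for Dpysl3 ended when wild-type replicate 1 or knockout replicate 1-1 or 2-1 was left out (adjusted p up to 0.109). That for Itga1 ended on leaving out wild-type replicate 1 or a single knockout array of the 3 (up to 0.15). With knockout arrays 1-1 and 1-2 averaged as 1 sample both calls also ended (adjusted p = 0.0537 for Dpysl3 and 0.119 for Itga1), as they did with each array centred on its median (0.0501 for each) and over all probe sets (0.122 and 0.119).

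Of the 31 measured signalling genes, 2 rose, 24 differences were above 0 and their median was 0.06. Of the 16 measured co-receptor and ligand genes, 1 rose, 6 differences were above 0 and the median was -0.08. Vegfa, which encodes a growth factor that binds neuropilins, read 7.10, 7.55 and 7.02 against 7.56, 8.08 and 7.72 (0.56, SE 0.17, limma adjusted p = 0.185). The highest wild-type and lowest knockout values of Vegfa were 0.02 apart. Of 21 measured Eph and ephrin genes, another guidance family, 1 rose (Epha4, 0.56) and 0 fell by limma, with 6 at an unadjusted p under 0.05. Their differences ran from -0.69 to 0.56, 14 were below 0 and the median was -0.07, with 4 genes lower and 2 higher without overlap. Over all genes 6.97% were lower and 8.18% higher without overlap, and 10.5% had an unadjusted limma p under 0.05. Of 19 netrin, slit and receptor genes, 1 rose (Slit2, 0.71) and 0 fell, with 2 at an unadjusted p under 0.05, 13 below 0 and a median of -0.05. Differences between these families and the semaphorins were not tested.

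Markers of ES cells and of other cells were read beside these results. Of 15 ES cell markers 5 rose (Tbx3, 1.59; Nanog, 1.09; Klf4, 0.97; Dppa3, 0.67; Esrrb, 0.56) and 0 fell, with a median of 0.30. Without overlap 7 were higher and 2 lower, where all genes gave 8.18% and 6.97%. The 2 lower were Pou5f1 (-0.39) and Tdgf1 (-0.06), and 4 of the 15 differences were below 0. The mean level of the 15 markers was 8.49 to 8.84 in wild type and 9.06 to 9.12 in knockout, so the groups did not overlap in it. Nanog and Dppa3 lie among raised genes of chromosome 6, with neighbour medians of 1.01 and 1.04 and 100% of neighbours higher for each. Of 13 endoderm markers 2 rose and 0 fell, with a median of -0.02 and a largest difference of 1.53. Of 21 measured feeder fibroblast markers 0 changed by limma (4 at an unadjusted p under 0.05), but 20 differences were above 0 and their median was 0.19. Their mean level was 6.43 to 6.64 in wild type and 6.63 to 6.92 in knockout, where array 1-2 was lowest and array 1-1 highest. Sema5a and Sema4c were highest in array 1-2. Sema3c and Nrp1 were highest in wild-type replicate 3, the array with the highest Krt8 value. Of 10 neural markers 1 fell (Nes), and of 12 vessel and mesoderm markers 1 fell (Gata2). The part of ES cell state, feeder cells or other cells in the differences of the semaphorin genes was not tested.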

How the data were processed

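Per the submitters' processing notes, the deposited log2 values, 1 per probe set and array, were made by the authors with RMA. The sources used here give no version, settings or genome build. Of 35557 probe sets, 21789 had 1 gene symbol in the platform annotation, 1621 had several and 12147 had none. Only the first kind named genes, which left 19938 genes, and 33 probe sets stood for the 31 genes described. Arrays have no read depth, and their number limits the precision. Detection p-values were not used here.

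Groups were compared with limma 3.58.1 in R 4.3.3 over all genes, by lmFit and eBayes without covariate or filter, after the step had been tested on simulated data. Gene order came from RefSeq (GRCm38.p6; 19856 genes placed by Entrez ID). The rule named changed genes, the 5 brightest other ligands and receptors, genes with separate groups or several probe sets, and changed signalling genes; the remaining members were added for completeness. Brightness was used for selection only. The members, lists and rules were chosen with earlier results of these data known. Alternatives changed the arrays, weights, normalization, probe sets, dim genes, variance model and threshold.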

Additional observations from a re-analysis of the deposited data

How the results depend on the processing

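Leaving out 1 array gave 1 lower and 0 higher genes throughout, with Sema6a between -1.30 and -1.09 (adjusted p 0.000701 to 0.0181). The count of higher genes was 1 with array weights, 1 after a second quantile normalization and 1 among genes above the median gene, in each case Sema5a. The count of lower genes was 0 with a floor at the median value. The 3 changed signalling and co-receptor genes were 1 to 3 over the omissions, 1 with knockout arrays 1-1 and 1-2 averaged, 1 with each array centred, 1 over all probe sets, 1 at an adjusted p under 0.01 and 0 with the floor. The ligand median (-0.07) lay between -0.077 and -0.028 over the omissions and was -0.039 with array weights, 0.14 among genes above the median gene and -0.0063 with the floor. The receptor median (0.01) lay between 0.015 and 0.066 over the omissions and was 0.11 among genes above the median gene. Plxnb2 turned to -0.035 with array weights. Plxnb1 lay between -0.082 and 0.066 over the omissions and was below 0 without wild-type replicate 2 or knockout replicate 2-1. Single named genes kept direction and side of the threshold in 290 comparisons with an alternative. They lost the call in 19, all for Sema6a, Mical3, Dpysl3 or Itga1, gained it in 3 (Sema5a) and turned in 3. The floor removes spread from dim genes, and why calls ended with it was not tested. No paired analysis was possible because the clone labels of the knockout share no replicate numbers with wild type. With 3 arrays a group, standard errors of 0.10 to 0.22 limit what could be seen in these genes.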

Other observations

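The knockout arrays carry 2 first clone numbers, and array 2-1 can be set beside the mean of arrays 1-1 and 1-2. Over the 31 genes the median absolute difference was 0.11 log2 units, against 0.09 over all genes, and no gene of the set exceeded 0.29. Plxnd1 (-0.29) and Sema6d (-0.28) were lowest in array 2-1 relative to the other clone number, and Plxnb1 (0.28), Nrp1 (0.24) and Sema3e (0.20) highest. Sema6a differed by -0.18, so it was low under both clone numbers. With 1 array on one side these values have no replicate check.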
